A study of Mus musculus with 4 samples.

Results

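Thyroid hormone acts on a cell only after it has been carried in, activated, kept and bound by its nuclear receptors, and 6 mouse genes that serve those steps were followed through brain cell classes: the carrier gene Slco1c1, the activating deiodinase gene Dio2, the binding protein gene Crym, the receptor genes Thra and Thrb, and Hr, which encodes a corepressor that binds the receptors. They were picked by symbol from the 32285 genes of the deposited tables, for their roles and with earlier results of these data in view, among them the level of Hr in astrocytes. The counts that led to the choice are therefore described here and not tested. All 6 symbols were found, each once, with 1575 UMIs (unique molecular identifiers, each standing for 1 captured transcript) for Crym, 4034 for Hr, 6851 for Dio2, 29172 for Thrb, 37114 for Thra and 46758 for Slco1c1 in the cells kept.

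The cells came from glia-enriched suspensions of brain tissue of male mice whose own Apoe gene had been replaced by a human allele, and every group carried such a replacement. The APOE4 LPS group carried human APOE4 and received 5 mg/kg bacterial lipopolysaccharide (LPS) into the peritoneum, with tissue taken 24 h later, and the APOE4 NaCl group carried APOE4 and received NaCl. The APOE3 LPS and APOE3 NaCl groups carried human APOE3 and were treated in the same 2 ways. Each group was 1 droplet library made from 3 mice, no cell can be assigned to a mouse, and the ages of the mice are not given in the sources used here. With 1 library per group there was no replicate and no difference was tested: a fold is a ratio of 2 libraries, and each 95% interval covers counting error only, not variation between mice, cells or preparations.

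The APOE4 LPS, APOE4 NaCl, APOE3 LPS and APOE3 NaCl libraries held 88460913, 73288965, 114378032 and 78513245 UMIs in 29361, 14122, 16078 and 15432 barcodes. The APOE4 LPS library stood apart: 61.9% of its barcodes passed the filters, against 92.6% to 93.7% in the other libraries, and 49.0% of its kept cells lay in clusters that could not be named, against 4.47% to 5.63%. No doublets were removed from it, while 1069 to 1441 were removed from each of the others. Between 267 and 414 barcode sequences of each library also occurred in another library, and leaving them out moved none of the 132 ratios that were followed beyond its counting interval. Cells were grouped without using the 6 genes and named from marker genes as astrocyte-like, endothelial-like and so on, here astrocytes, endothelial cells and so on. A total of 13 classes held at least 50 cells in every library, and although the labels describe non-neuronal cells, 1 of these classes was neuronal, and the larger of its 2 clusters met all 8 neuronal markers. The level of a gene is given in CPM, the usual scale on which the UMIs of all genes in a class and library sum to 1000000. A difference of 1.5-fold or more is used as the size threshold, and a gene counts as measured if either library held 10 or more of its UMIs.

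Thyroxine, the main form of the hormone in blood, is a prohormone that needs a membrane carrier to cross the blood-brain barrier. In the rodent brain the carrier OATP1C1, the product of Slco1c1, is known from capillary endothelium, choroid plexus and astrocytes, and the type 2 deiodinase encoded by Dio2 converts thyroxine to the active hormone triiodothyronine in astrocytes and tanycytes. Triiodothyronine binds the receptors TRα and TRβ, encoded by Thra and Thrb, which sit on DNA and switch between corepressors such as HR and coactivators. Crym encodes µ-crystallin, a cytosolic protein that binds triiodothyronine and holds it in the cell.

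The genes lie at 6:141524368-141570177 (Slco1c1, plus strand), 12:90724552-90738438 (Dio2, minus), 7:120186380-120202111 (Crym, minus), 11:98740638-98769006 (Thra, plus), 14:17660261-18038090 (Thrb, plus) and 14:70552212-70573548 (Hr, plus) of GRCm38. Genes on the opposite strand overlap Dio2 (Gm26512), Thra (Nr1d1) and Thrb (Gm24140, Gm48320 and Gm48321). How the authors' counting used strand is not given in the sources used here, so reads of these overlapping pairs cannot be told apart. The RefSeq promoter table of GRCm38.p6, with windows from 250 bases before to 50 bases after a start site, held windows for 3 of the 6 genes. The windows of the carrier and of the activating enzyme are shown because these are the 2 steps at which the hormone enters and is switched on, and because their levels behaved differently in the LPS libraries. Capitals mark matches to TATAAA, the TATA box motif, and, in Dio2, a cyclic AMP response element, through which cyclic AMP is known to raise transcription. The Slco1c1 window spans chr6:141524104-141524403 on the plus strand and the Dio2 window chr12:90738989-90739288 on the minus strand, and both are written 5′ to 3′.
Slco1c1: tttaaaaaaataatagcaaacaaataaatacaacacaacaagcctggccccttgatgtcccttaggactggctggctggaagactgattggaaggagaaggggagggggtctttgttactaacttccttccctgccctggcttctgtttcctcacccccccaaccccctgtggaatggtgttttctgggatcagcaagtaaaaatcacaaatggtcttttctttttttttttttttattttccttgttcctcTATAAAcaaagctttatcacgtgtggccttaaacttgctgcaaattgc
Dio2: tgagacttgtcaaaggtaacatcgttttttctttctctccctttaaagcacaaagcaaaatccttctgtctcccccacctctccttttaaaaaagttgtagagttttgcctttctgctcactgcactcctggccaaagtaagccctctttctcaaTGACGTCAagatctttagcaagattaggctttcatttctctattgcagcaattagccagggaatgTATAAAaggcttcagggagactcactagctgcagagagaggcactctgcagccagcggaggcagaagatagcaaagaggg

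In the Dio2 window the cyclic AMP response element TGACGTCA began at position 156 and the TATA box TATAAA at position 221, counted from 1 at the 5′ end with the start site at position 251. TGACGTCA occurred in 586 of 32544 distinct windows of this length (1.80%) and TATAAA in 4416 (13.6%). In the Slco1c1 window TATAAA began at position 253, just past the annotated start. Searched on both strands, neither window held the receptor core AGGTCA (5288 windows, 16.2%), its direct repeat with 4 bases between (5 windows, 0.0154%), the glucocorticoid core AGAACA (6157 windows, 18.9%), its palindrome with 3 bases between (3 windows, 0.00922%) or the NF-κB motif (135 windows, 0.415%). AGGTCA is contained in its repeat and AGAACA in its palindrome. Of the 2 Thrb windows, the first held AGGTCA at position 67 and the second held AGAACA at 2 places and TATAAA at position 84. A match or its lack describes these 300 bases only.

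Each gene had its own distribution over the 13 classes. Astrocytes had the highest mean level of Dio2, Thrb and Hr, endothelial cells of Slco1c1, neurons of Crym, and oligodendrocytes of Thra. Astrocytes alone held 82.9% of all Dio2 UMIs, 64.3% of Hr, 60.9% of Thrb, 48.3% of Crym and 40.5% of Slco1c1. Microglia, used here as a class that should lack these 3 genes, had between 0.0725 and 0.884 CPM of Hr, Crym and Dio2.

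**Figure D1:**
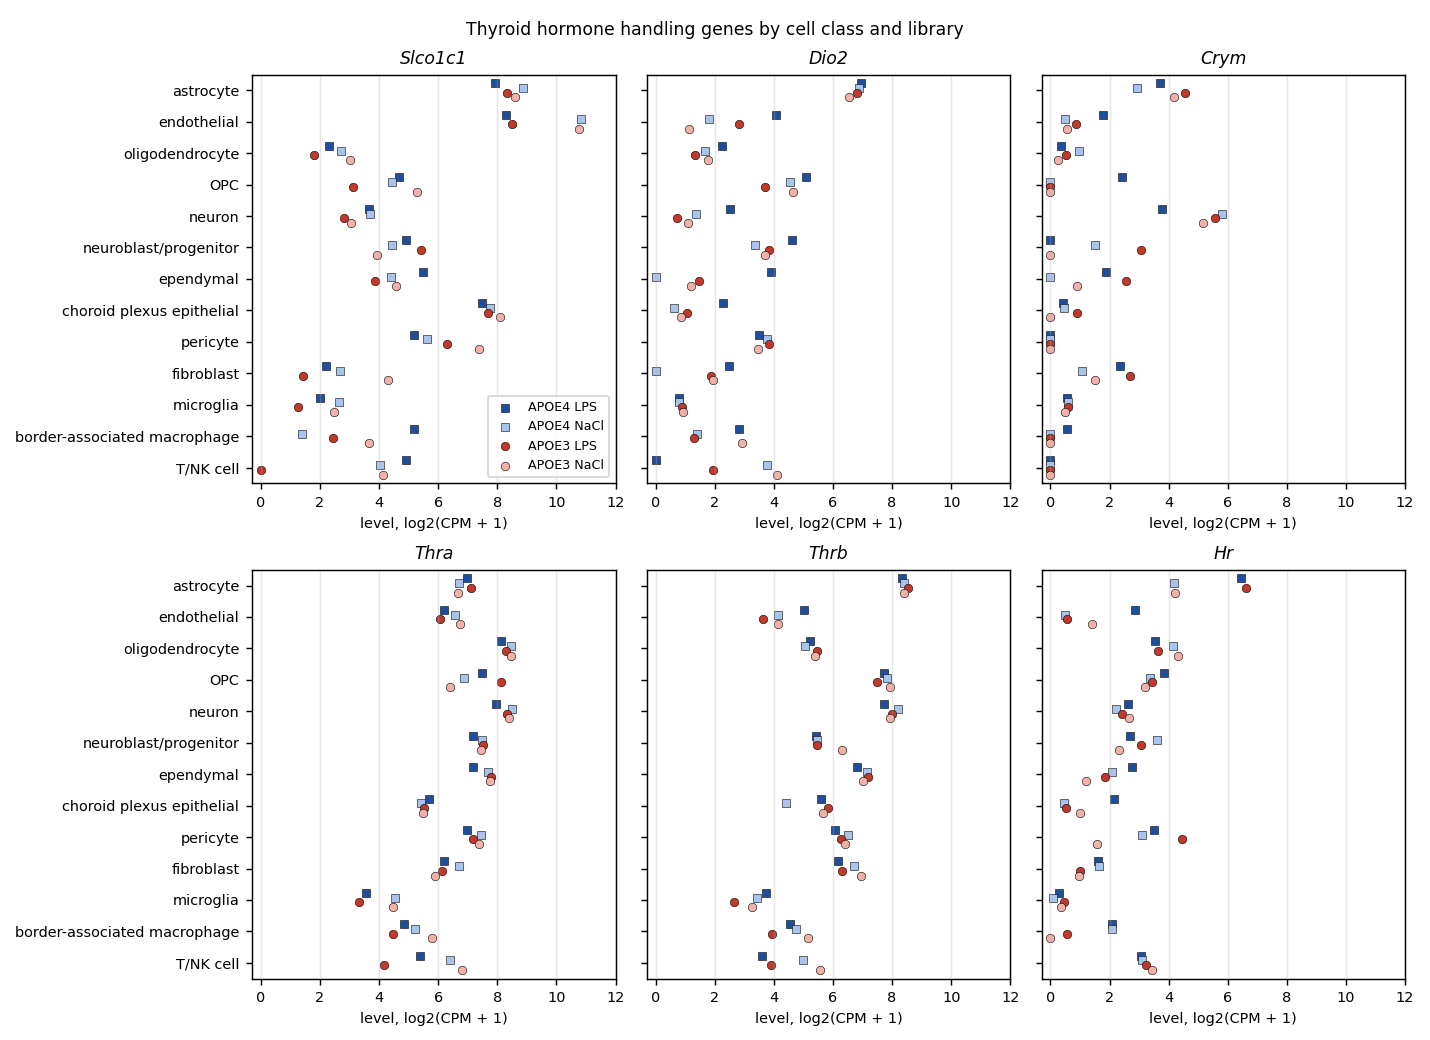
Level of each gene as log2(CPM + 1) on the x axis in 13 cell classes on the y axis, with 1 point per library (squares APOE4, circles APOE3, dark LPS, pale NaCl). Slco1c1 in endothelial cells shows both NaCl libraries far right of both LPS libraries, Hr in astrocytes shows the opposite, and Thrb in astrocytes lies within 322 to 369 CPM in all 4.

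Slco1c1, the thyroxine carrier, was far lower in endothelial cells of both LPS libraries. Its level there was 314 CPM in APOE4 LPS, 1827 CPM in APOE4 NaCl, 356 CPM in APOE3 LPS and 1727 CPM in APOE3 NaCl. The 2 LPS values lie close together and well below the 2 NaCl values, with no overlap of counting intervals (298 to 331 and 342 to 372 CPM in LPS, 1773 to 1882 and 1688 to 1767 CPM in NaCl). The LPS to NaCl ratio was 0.172 (0.162 to 0.183) in APOE4 and 0.206 (0.197 to 0.216) in APOE3. Thinned to 1000 UMIs per cell, 20.5% of endothelial cells had a Slco1c1 UMI in APOE4 LPS, against 79.1% in APOE4 NaCl, and 23.9% in APOE3 LPS, against 77.6% in APOE3 NaCl. Before thinning the shares were 33.1%, 93.7%, 56.7% and 93.9% in the same order. In microglia the thinned share was 0.118% to 0.652%, at median depths of 4199 to 7238 UMIs per cell before thinning, against 1817 to 4863 in endothelial cells.

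Different clusters held the endothelial cells of the 2 treatments. Cluster 9 held 884 of the 1255 endothelial cells of APOE4 LPS at a median of 1566 UMIs, cluster 12 held 348 cells of APOE4 LPS and 801 of the 829 of APOE3 LPS, and cluster 13 held 593 of 602 cells of APOE4 NaCl and 798 of 850 of APOE3 NaCl. Slco1c1 stood at 179 CPM in cluster 9 and at 412 CPM in cluster 12 of APOE4 LPS, and at 353 CPM in cluster 12 of APOE3 LPS. The few LPS cells of cluster 13, 23 in APOE4 and 9 in APOE3, had 1292 and 1015 CPM, and the 47 APOE3 NaCl cells of cluster 12 had 1100 CPM. Without cluster 9 the APOE4 ratio was 0.245 (0.228 to 0.262) and the APOE3 ratio 0.206 (0.197 to 0.217). Markers of other cells moved with the treatment in this class: the 8 microglial markers summed to 3421 CPM in APOE4 LPS, 174 in APOE4 NaCl, 622 in APOE3 LPS and 144 in APOE3 NaCl, and the 8 astrocyte markers to 2013, 343, 753 and 427 CPM. All 8 of each were detected in every library. The summed endothelial markers were 12938, 16326, 23639 and 16266 CPM in that order, highest in APOE3 LPS and lowest in APOE4 LPS. Within APOE4 LPS, cluster 9 had 5648 CPM of the microglial, 2854 of the astrocyte and 6792 of the endothelial markers. Cluster 12 of that library had 1129, 1216 and 19013 CPM, so most APOE4 LPS cells of this class lay in a cluster of mixed marker content. The part of the added markers in the Slco1c1 ratio was not tested.

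Other carriers of thyroid hormone at the endothelial membrane were mixed. Of 12 listed carriers besides Slco1c1, 9 were measured in endothelial cells in each genotype, and 4 were lower and 4 higher by 1.5-fold in APOE4, with 4 lower and 2 higher in APOE3. Over all genes of the class, 19% were called lower and 29% higher in APOE4, and 17.7% and 15.3% in APOE3. Slc7a5, the large neutral amino acid carrier LAT1 that also moves thyroid hormone, had ratios of 0.166 and 0.201, and its partner chain Slc3a2 of 0.427 and 0.487.

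Slco1a4, another organic anion carrier of the barrier, was at 0.289 (0.279 to 0.299) in APOE4 and 0.686 (0.670 to 0.701) in APOE3. Without cluster 9 the APOE4 ratios were 0.245 for Slc7a5, 0.438 for Slc3a2 and 0.451 for Slco1a4, all still past the 1.5-fold threshold. In the other direction, Slc7a8, the second light chain LAT2, was at 6.02 (3.15 to 12.9) in APOE4 and at 2.61 without cluster 9. Slco3a1 was at 5.42 (2.99 to 10.8) in APOE4 and at 3.65 without cluster 9. In APOE3 without cluster 9, Slc7a8 was at 2.64 (1.33 to 5.70), whereas Slco3a1 was at 0.945 (0.540 to 1.68). Slc16a10, which encodes the aromatic amino acid carrier MCT10, was 15.6-fold higher (4.12 to 132) in APOE4 from 58 UMIs in LPS and 2 in NaCl. Slco2b1 was between the thresholds in both genotypes, at 0.819 and 1.36. Of the carriers called lower in APOE4, Slc7a5, Slco1a4 and Slc3a2 had levels from 532 to 3972 CPM in APOE4 NaCl, whereas the 4 called higher started from 5.02 CPM or less.

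**Figure D2:**
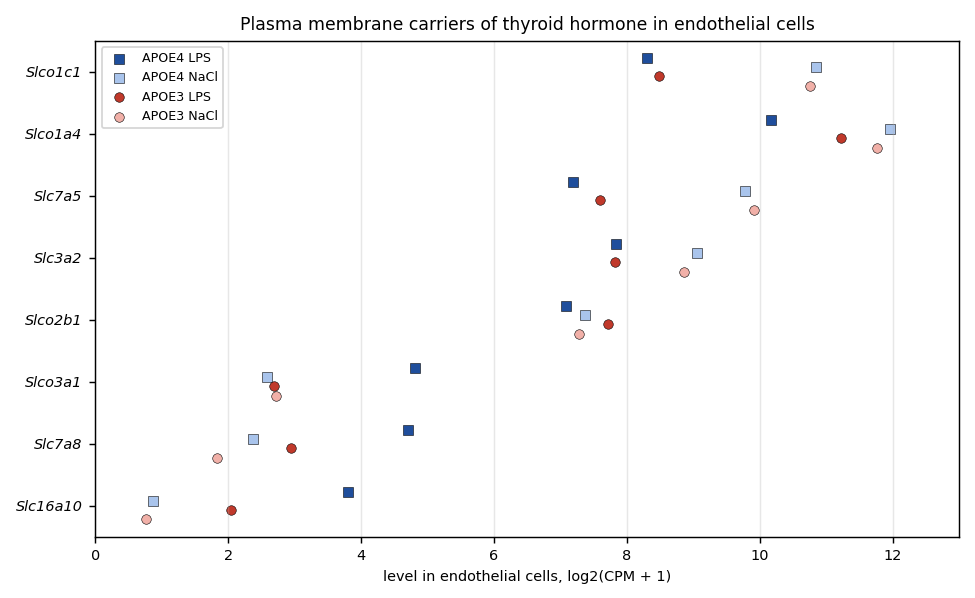
Level of Slco1c1 and 7 other carriers in endothelial cells, as log2(CPM + 1), with 1 point per library (squares APOE4, circles APOE3, dark LPS, pale NaCl). Slco1c1, Slco1a4, Slc7a5 and Slc3a2 have both LPS points left of both NaCl points, while Slc7a8 and Slc16a10 have both LPS points to the right.

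In astrocytes Slco1c1 was lower in LPS than in NaCl in both genotypes, by less than in endothelial cells. It was at 243 CPM in APOE4 LPS, 466 in APOE4 NaCl, 317 in APOE3 LPS and 386 in APOE3 NaCl. Both LPS levels lie below both NaCl levels, and the counting intervals of the 4 libraries do not overlap. The ratio was 0.521 (0.497 to 0.547) in APOE4, past 1.5-fold, and 0.821 (0.789 to 0.855) in APOE3, short of it. The APOE4 log2 ratio was lower than the APOE3 one by 0.66 (counting interval of the difference -0.75 to -0.57). APOE4 to APOE3 ratios were 0.767 (0.729 to 0.808) in LPS and 1.21 (1.17 to 1.25) in NaCl. The mix of astrocyte clusters differed too, as described below, and within the 2 large clusters the difference of log2 ratios was -0.29 and -0.51.

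Slco1c1 in choroid plexus epithelium, the third known site of the carrier, was at 179 CPM in APOE4 LPS, 213 in APOE4 NaCl, 205 in APOE3 LPS and 270 in APOE3 NaCl. The LPS to NaCl ratios, 0.841 (0.773 to 0.916) in APOE4 and 0.760 (0.699 to 0.826) in APOE3, were short of the threshold. In the class named pericytes Slco1c1 was at 34.9, 48.3, 78.3 and 167 CPM in that order, from 17, 19, 41 and 83 UMIs. That class met all 6 pericyte markers, but the smooth muscle markers Myh11 and Tpm2 were among its leading genes. It may therefore hold smooth muscle cells as well, and a cluster led by Abcc9 and Rgs5 was left unnamed. No level of another class exceeded 44.0 CPM.

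Hr was much higher in astrocytes of the LPS libraries. It was at 87.0 CPM (81.1 to 93.3) in APOE4 LPS, 17.0 CPM (14.9 to 19.3) in APOE4 NaCl, 96.9 CPM (91.7 to 102) in APOE3 LPS and 17.5 CPM (15.5 to 19.8) in APOE3 NaCl. The 2 LPS levels are separated from the 2 NaCl levels, and the 2 NaCl levels overlap. The ratios were 5.12 (4.43 to 5.94) in APOE4 and 5.53 (4.84 to 6.34) in APOE3, and the log2 ratios differed by -0.11 (-0.39 to 0.17), an interval that includes no difference. Thinned to 1000 UMIs, 7.92% of astrocytes had an Hr UMI in APOE4 LPS, against 1.53% in APOE4 NaCl, and 9.07% in APOE3 LPS, against 1.69% in APOE3 NaCl. Unthinned shares were 20.5%, 5.91%, 24.6% and 5.61%, at median depths of 3386, 3697, 3752 and 3331 UMIs. The thinned microglial share was at most 0.0313%. The highest LPS astrocyte had 10 Hr UMIs in each genotype, and no NaCl astrocyte had more than 3.

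The order was the other way in oligodendrocytes, where Hr was at 10.7 CPM in APOE4 LPS, 16.7 in APOE4 NaCl, 11.5 in APOE3 LPS and 19.1 in APOE3 NaCl. These LPS levels are the lower ones, with ratios of 0.641 (0.486 to 0.839) in APOE4 and 0.600 (0.489 to 0.736) in APOE3. Both lie just past the threshold, from 78 to 209 UMIs per library, and the call was lost in APOE4 under 7 of 12 alternative settings and in APOE3 under 2 of 12. Over all genes of the class, 14.2% were called lower in APOE4 and 14.9% in APOE3. Cluster 1 held 1189 and 2460 of the oligodendrocytes of APOE4 LPS and APOE3 LPS, and cluster 0 held 2285 and 2254 of those of APOE4 NaCl and APOE3 NaCl. In the class named pericytes, with the limit given above, Hr was counted 5 times in APOE4 LPS, 3 in APOE4 NaCl, 11 in APOE3 LPS and 1 in APOE3 NaCl. The LPS to NaCl ratio there was 1.35 (0.262 to 8.68) in APOE4 and 10.4 (1.52 to 449) in APOE3, with intervals too wide to place either value.

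**Figure D3:**
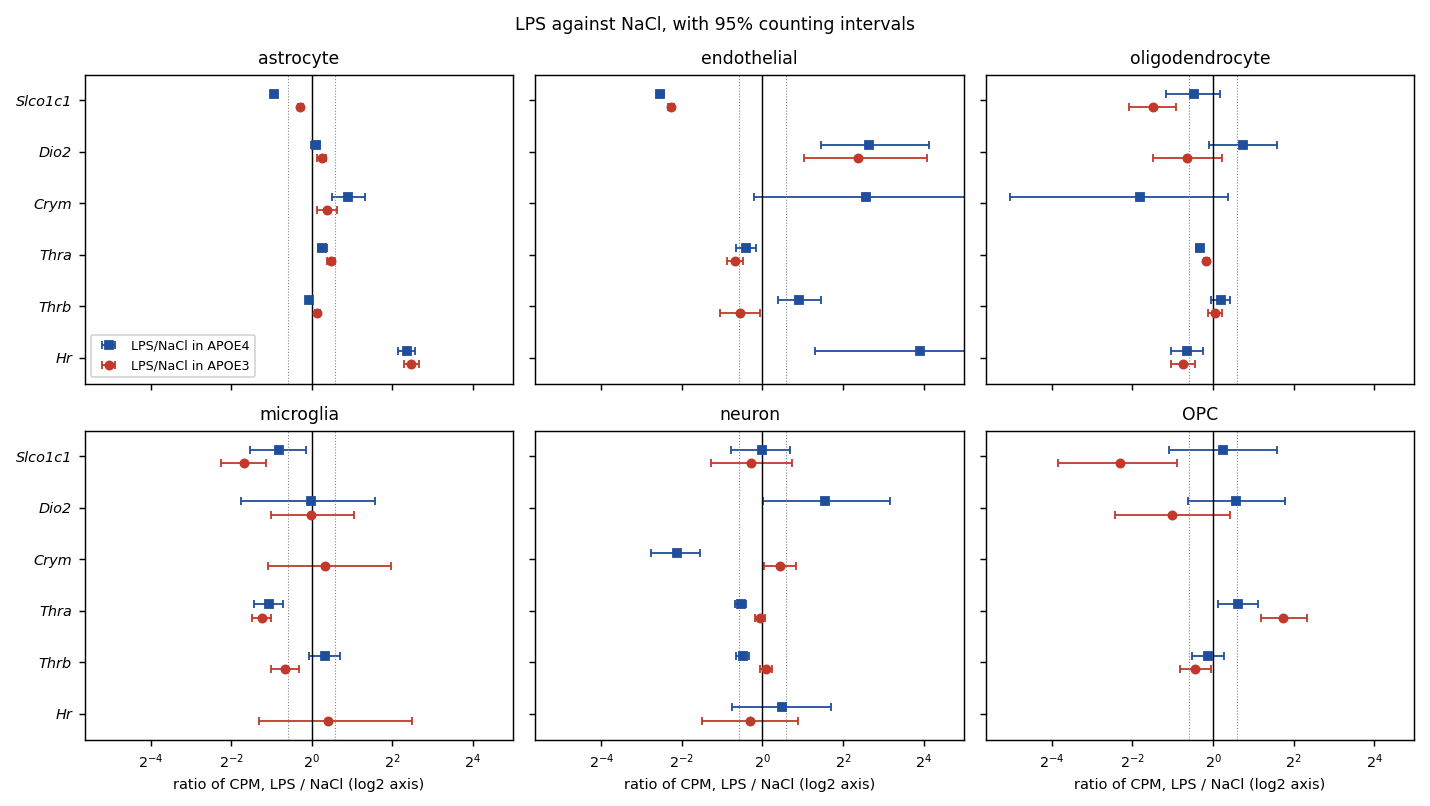
Ratio of CPM in LPS over NaCl (log2 x axis) for each measured gene in 6 classes, squares APOE4 and circles APOE3, with 95% counting intervals as bars and the 1.5-fold thresholds as dotted lines. Slco1c1 in endothelial cells lies at 0.172 and 0.206 and Hr in astrocytes at 5.12 and 5.53, and the intervals of Hr and Crym in APOE4 endothelial cells run past the axis.

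The activating enzyme gene Dio2 differed little between libraries in astrocytes, which held 82.9% of its UMIs. Its astrocyte level was 124 CPM (117 to 131) in APOE4 LPS, 116 (111 to 122) in APOE4 NaCl, 110 (105 to 116) in APOE3 LPS and 93.1 (88.3 to 98.0) in APOE3 NaCl. APOE3 NaCl is the lowest and lies apart from the others, whose intervals overlap in part. LPS to NaCl ratios were 1.06 (0.986 to 1.15) in APOE4 and 1.19 (1.10 to 1.28) in APOE3, and APOE4 to APOE3 ratios were 1.12 (1.04 to 1.21) in LPS and 1.25 (1.16 to 1.34) in NaCl, all short of 1.5-fold. In every other class Dio2 stood at 33.1 CPM or less. In endothelial cells it was at 15.7 CPM in APOE4 LPS, 2.51 in APOE4 NaCl, 6.08 in APOE3 LPS and 1.16 in APOE3 NaCl, from 70, 6, 37 and 5 UMIs, beside the astrocyte marker sums of that class given above, and their part in these values was not tested. The other deiodinases were all but absent from astrocytes: Dio1 had 0 UMIs in all 4 libraries, and Dio3, the inactivating enzyme, had 0 in both APOE4 libraries, 2 in APOE3 LPS and 5 in APOE3 NaCl. A count of 0 allows up to 0.324 CPM in APOE4 LPS and 0.209 CPM in APOE4 NaCl.

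Crym, the gene of the hormone-holding protein, was found in few cells, and the ones with several UMIs held a large share of the total. Its neuronal level was 12.6 CPM in APOE4 LPS, 55.2 in APOE4 NaCl, 46.4 in APOE3 LPS and 34.6 in APOE3 NaCl, and its astrocyte level 12.2, 6.55, 22.3 and 17.2 CPM in that order. In astrocytes both APOE4 libraries lie below both APOE3 libraries, and within each genotype LPS lies above NaCl. The APOE4 to APOE3 ratio was 0.547 (0.436 to 0.681) in LPS and 0.381 (0.297 to 0.484) in NaCl, and the LPS to NaCl ratio 1.86 (1.40 to 2.47) in APOE4 and 1.30 (1.09 to 1.54) in APOE3. The APOE4 to APOE3 call was lost in LPS under 4 of 15 alternative settings, where the log2 ratio of -0.82 ranged from -1.34 in cluster 5 alone to -0.19 at a finer clustering, and in NaCl under none of 14. These intervals understate the error, because the UMIs come from few cells. Only 51, 36, 63 and 57 astrocytes of APOE4 LPS, APOE4 NaCl, APOE3 LPS and APOE3 NaCl had a Crym UMI, and the 4, 6, 17 and 17 of them with at least 5 UMIs held 44.2%, 51.1%, 72.8% and 69.6% of the total. After thinning, the share of astrocytes with a Crym UMI was 0.959% in APOE4 LPS, 0.465% in APOE4 NaCl, 0.830% in APOE3 LPS and 0.833% in APOE3 NaCl, and the intervals of all 4 shares overlap.

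Neuronal Crym rested on 18, 67, 47 and 34 cells with a UMI in APOE4 LPS, APOE4 NaCl, APOE3 LPS and APOE3 NaCl. The LPS to NaCl ratio was 0.228 (0.147 to 0.341) in APOE4 and 1.34 (1.02 to 1.77) in APOE3; 12.3% of all neuronal genes were called lower in APOE4. In APOE4 LPS no neuron had more than 3 Crym UMIs, whereas 14, 8 and 5 neurons of the other libraries had at least 5 and held 56.2%, 45.0% and 47.3% of their totals. The class held 222, 414, 343 and 329 cells, and which neurons a glia-enriched preparation retained was not tested.

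**Figure D4:**
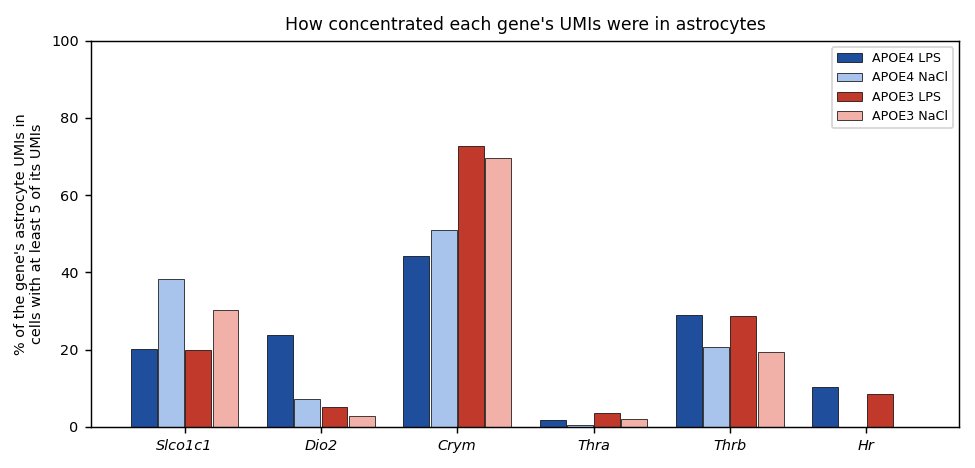
Share of each gene's astrocyte UMIs (y axis, in percent) that came from cells with at least 5 UMIs of that gene, with 1 bar per library. Crym stands at 44.2% to 72.8%, above every other gene in each library, and Dio2 reaches 23.9% in APOE4 LPS against 2.70% to 7.12% in the other libraries.

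The receptor gene Thrb stayed short of 1.5-fold between all libraries in astrocytes. Thrb in astrocytes, its highest class, was at 322 CPM (311 to 334) in APOE4 LPS, 338 (328 to 347) in APOE4 NaCl, 369 (359 to 380) in APOE3 LPS and 336 (326 to 345) in APOE3 NaCl. APOE3 LPS alone stands above the rest, and the other 3 intervals overlap. The LPS to NaCl ratio was 0.954 (0.911 to 0.999) in APOE4 and 1.10 (1.06 to 1.14) in APOE3. Thrb came next in neurons, at 209, 294, 254 and 240 CPM in the order of the libraries above, and in oligodendrocyte precursors (OPCs), at 209, 227, 178 and 243 CPM, and these 2 classes overlap in their ranges.

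Thra was highest in oligodendrocytes and neurons, whose ranges over the libraries overlap. In oligodendrocytes it was at 276 CPM (264 to 288) in APOE4 LPS, 348 (337 to 359) in APOE4 NaCl, 312 (303 to 321) in APOE3 LPS and 351 (340 to 362) in APOE3 NaCl. Both LPS levels lie below both NaCl levels, but the ratios, 0.793 (0.752 to 0.837) in APOE4 and 0.888 (0.851 to 0.927) in APOE3, are short of 1.5-fold. In neurons Thra was at 248, 361, 322 and 336 CPM. In astrocytes it was higher in LPS, at 123, 103, 138 and 99.6 CPM, with ratios of 1.20 (1.11 to 1.29) in APOE4 and 1.39 (1.30 to 1.49) in APOE3.

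Thra passed the threshold in both genotypes in 3 classes, microglia, OPCs and T/NK cells. In T/NK cells, where 23.1% of all genes were called lower in APOE4 and 19.9% in APOE3, it rested on 6 to 34 UMIs per library. In microglia it was at 10.7 CPM in APOE4 LPS, 22.4 in APOE4 NaCl, 8.99 in APOE3 LPS and 21.4 in APOE3 NaCl, giving ratios of 0.476 (0.372 to 0.604) in APOE4 and 0.421 (0.358 to 0.495) in APOE3. The 2 LPS levels overlap each other and lie apart from the 2 NaCl levels, while 18.3% of all microglial genes were called lower in APOE4 and 22.6% in APOE3, with the median ratio shifted by -0.03 and -0.19 on the log2 scale. Microglia of LPS lay mostly in clusters 8 and 21 and those of NaCl in clusters 6 and 10. In OPCs Thra was at 176 CPM in APOE4 LPS, 115 in APOE4 NaCl, 279 in APOE3 LPS and 83.6 in APOE3 NaCl, with ratios of 1.53 (1.08 to 2.16) in APOE4 and 3.34 (2.30 to 5.02) in APOE3. The APOE4 call was lost under 6 of 12 alternative settings, and its log2 ratio of 0.61 was 0.24 with called doublets kept. Of all genes in OPCs, 20.1% were called higher in APOE4 and 23.9% in APOE3. The APOE3 value rests on 234 OPCs in LPS and 139 in NaCl. In APOE3 LPS 17 of these cells held 69.9% of the Thra UMIs, with up to 20 in a cell, and keeping the called doublets lowered the log2 ratio of 1.73 to 0.75.

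At the brain's barriers the receptor genes were read in endothelial cells and in choroid plexus epithelium. In endothelial cells Thra was at 71.9 CPM in APOE4 LPS, 94.9 in APOE4 NaCl, 65.2 in APOE3 LPS and 105 in APOE3 NaCl, with both LPS levels below both NaCl levels and ratios of 0.757 (0.637 to 0.902) in APOE4 and 0.619 (0.540 to 0.710) in APOE3. Without cluster 9 the APOE4 ratio was 0.617 (0.494 to 0.769), past the threshold. Thrb there was at 31.2, 16.7, 11.3 and 16.8 CPM in the same order, and the APOE4 ratio of 1.87 (1.30 to 2.72) was 1.18 (0.749 to 1.85) without cluster 9. The direction of this Thrb ratio depended on the treatment of doublets. On the log2 scale it was 0.86, but -0.92 with called doublets kept in all libraries and -0.16 with called barcodes removed from APOE4 LPS too, and the APOE4 to APOE3 ratio in LPS was 1.39, but -0.20 with called doublets kept. In choroid plexus epithelium Thrb was at 47.1 CPM in APOE4 LPS, 20.4 in APOE4 NaCl, 55.5 in APOE3 LPS and 49.1 in APOE3 NaCl. APOE4 NaCl was the lowest, with an LPS to NaCl ratio of 2.31 (1.85 to 2.91) in APOE4, against 1.13 (0.946 to 1.35) in APOE3, and an APOE4 to APOE3 ratio of 0.415 (0.328 to 0.522) in NaCl. The class is made of 2 clusters that differ in Thrb and in their share of each library. Cluster 7 had 32.1 CPM in APOE4 LPS, 7.81 in APOE4 NaCl, 10.8 in APOE3 LPS and 9.24 in APOE3 NaCl, from 1026, 534, 454 and 397 cells. Cluster 25 had 92.0, 65.6, 107 and 83.2 CPM in that order, from 75, 58, 77 and 135 cells. APOE4 NaCl is the lowest library in each cluster too, while in cluster 7 APOE4 LPS stands above the other 3, whose levels lie close together. In that class 51.7% of all genes were called higher in APOE4 LPS than in APOE4 NaCl, and 37.1% lower in APOE4 NaCl than in APOE3 NaCl. The median ratio of well-counted genes was shifted there by 0.31 and -0.29 on the log2 scale.

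Over all 6 genes and 13 classes, the pairs past the threshold were more often lower in LPS in APOE3 and more often higher in LPS in APOE4. Of 78 possible pairs of gene and class, 57 were measured in APOE4, where 18 were at least 1.5-fold higher in LPS and 9 lower. Of 52 measured in APOE3, 7 were higher and 19 lower. The pairs include genes outside their main classes with few UMIs, and several come from the same gene. Among those higher in APOE4 were Dio2 in choroid plexus epithelium (22 UMIs in LPS, 3 in NaCl) and Hr in endothelial cells (28 and 1). Among those lower in APOE3 was Slco1c1 in OPCs (7 and 14). Over all gene and class pairs of the tables, 22.7% were called higher and 15.5% lower in APOE4, and 15.3% and 15.1% in APOE3. The APOE4 share of higher pairs sits beside the other changes of the APOE4 LPS library given above, and its relation to them was not tested. Between genotypes, 22 of 60 pairs were higher in APOE4 LPS than in APOE3 LPS and 8 lower (background 15.9% and 10.6%), and 4 of 47 pairs were higher in APOE4 NaCl than in APOE3 NaCl and 8 lower (background 8.36% and 11.7%). In 20 of 46 pairs measured in both genotypes the LPS to NaCl ratios were at least 1.5-fold apart, as in 32.7% of such pairs over all genes. In astrocytes alone, 2 of the 6 genes (Hr and Crym) were called higher and 1 (Slco1c1) lower in APOE4, where 12.8% and 9.25% of all measured genes were, and 1 (Hr) higher and 0 lower in APOE3, where 7.91% and 10.6% were. The median log2 ratio of the 6 genes was 0.17 in APOE4 and 0.30 in APOE3, against -0.02 and -0.07 over all genes. The level of Hr in astrocytes was known when the genes were chosen. These counts and medians therefore describe the choice, and their distance from the values over all genes cannot be read as a result. Crym was the 1 gene called between genotypes in astrocytes, lower in APOE4 in both treatments, with the exceptions in LPS given above, where 4.35% of genes were called lower and 10.5% higher in LPS, and 6.47% lower and 3.47% higher in NaCl.

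Astrocytes formed 2 large clusters, which differed in the carrier, the deiodinase, the binding protein and the corepressor and hardly in the receptors. Cluster 3 was led by genes such as Lhx2, Emx2os and Chrdl1 and held 728, 1985, 1449 and 1840 cells of APOE4 LPS, APOE4 NaCl, APOE3 LPS and APOE3 NaCl, and cluster 5 was led by Agt, Slc6a11 and Itih3 and held 960, 1665, 1729 and 2318 cells. Lhx2 is a forebrain transcription factor, and Agt and Slc6a11 are known to mark astrocytes outside the telencephalon. The clusters were drawn without the 6 genes, but genes that vary with them took part, so the contrast between clusters is a description. In 16 of 24 pairs of gene and library the 2 clusters were at least 1.5-fold apart, against 24.5% of such pairs over all genes.

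Hr belonged mostly to cluster 5, which held 633 of 807, 194 of 244, 1205 of 1278 and 229 of 265 astrocyte UMIs in the order of the libraries above. Its level there was at 172 CPM in APOE4 LPS, 31.5 in APOE4 NaCl, 178 in APOE3 LPS and 29.4 in APOE3 NaCl, and the LPS to NaCl ratios there were 5.45 (4.64 to 6.44) in APOE4 and 6.04 (5.24 to 6.99) in APOE3. In cluster 3 it was at 11.2, 6.12, 10.5 and 4.82 CPM, so that the LPS levels of cluster 3 lie below the NaCl levels of cluster 5, and the ratios were 1.83 (1.13 to 2.93) and 2.19 (1.42 to 3.42). Slco1c1 had the reverse distribution, with 406, 658, 460 and 609 CPM in cluster 3 and 148, 214, 192 and 195 CPM in cluster 5. Its LPS to NaCl ratios were 0.617 (0.578 to 0.658) in APOE4 and 0.756 (0.720 to 0.793) in APOE3 in cluster 3, and 0.692 (0.625 to 0.766) and 0.987 (0.916 to 1.06) in cluster 5. Over all genes, 7.74% were called higher and 10.4% lower in APOE4 in cluster 3, 7.3% higher in APOE3 in cluster 3, and 9.35% and 7.91% higher in APOE4 and APOE3 in cluster 5.

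Dio2 likewise favoured cluster 3, at 132, 157, 136 and 141 CPM, against 67.8, 62.7, 87.2 and 51.4 CPM in cluster 5. There its APOE3 ratio of 1.70 (1.49 to 1.93) was past the threshold, against 1.08 (0.920 to 1.27) in APOE4, while in cluster 3 the ratios were 0.838 (0.744 to 0.943) in APOE4 and 0.963 (0.877 to 1.06) in APOE3. Crym was at 18.1, 10.0, 42.4 and 32.1 CPM in cluster 3, against 1.09, 0.487, 4.28 and 0.257 CPM in cluster 5, where a single cell gave 21 of the 29 UMIs of APOE3 LPS. The receptor genes were alike in both clusters: Thrb had 336, 314, 326 and 311 CPM in cluster 3 and 393, 369, 417 and 363 CPM in cluster 5, and Thra 126, 101, 126 and 95.8 CPM and 123, 104, 145 and 98.7 CPM.

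**Figure D5:**
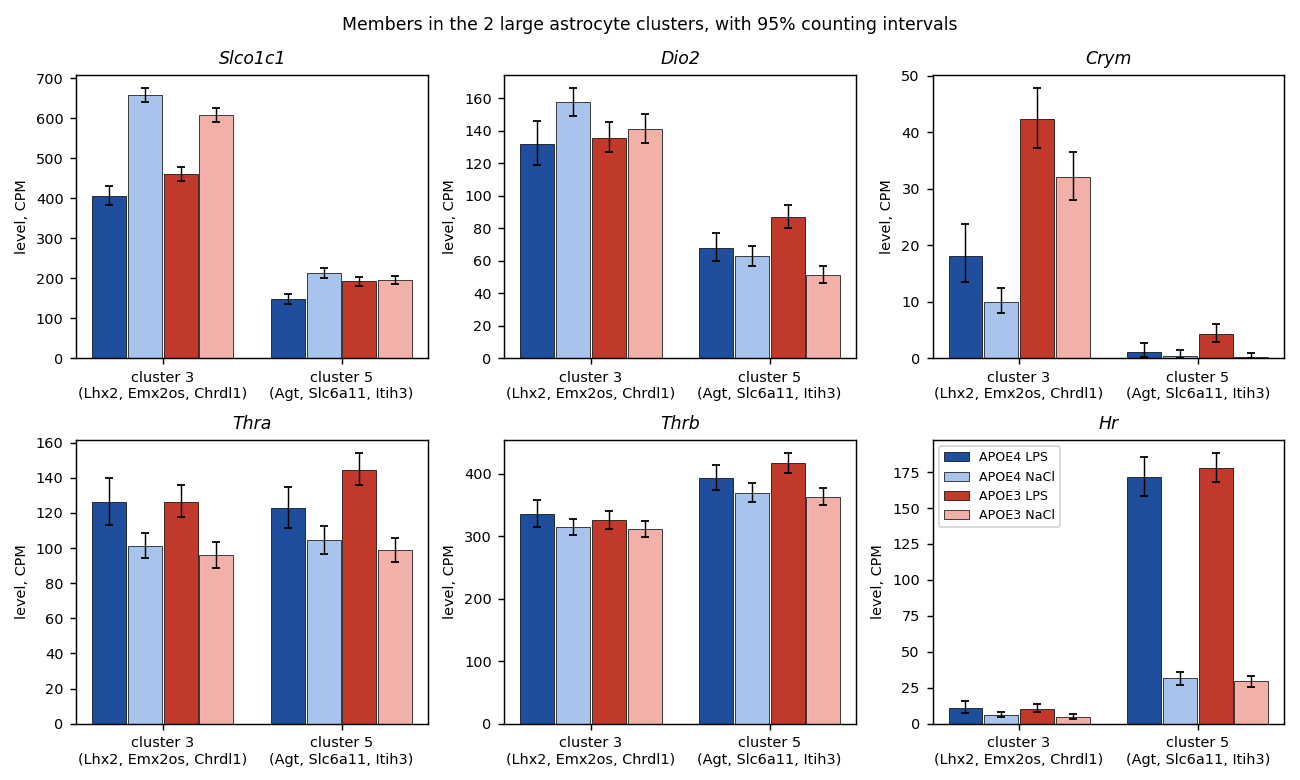
Level in CPM (y axis from 0) of the 6 genes in astrocyte clusters 3 and 5, with 1 bar per library and 95% counting intervals. Hr is high in cluster 5 of both LPS libraries (172 and 178 CPM), Slco1c1, Dio2 and Crym are higher in cluster 3, and Thra and Thrb differ little between the clusters.

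A smaller astrocyte cluster with Gfap, Iigp1 and Gbp2 among its leading genes held 711 cells of APOE4 LPS and 5, 74 and 46 cells of APOE4 NaCl, APOE3 LPS and APOE3 NaCl. In APOE4 LPS it had 189 CPM of Dio2, above the 132 and 67.8 CPM of the large clusters, and 24 of its 711 cells carried at least 5 Dio2 UMIs, with a maximum of 30. Genes chosen after their values were seen as higher in the 25 such cells of all libraries were Ccnd1 (5.84-fold, 4.34 to 7.80), 4930544I03Rik, Gpc6 and Crim1 (4.16- to 4.85-fold). Crym in that cluster was at 20.9 CPM in APOE4 LPS, from 59 UMIs in 26 cells. In APOE3 LPS it was at 23.8 CPM, from 8 UMIs in 1 cell. The 6 summed tanycyte markers were at 34.3 and 17.8 CPM there. In APOE4 NaCl Crym was at 271 CPM (124 to 514), from 9 UMIs in 1 of 5 cells. In APOE3 NaCl it was at 112 CPM (76.7 to 158), from 32 UMIs in 10 of 46 cells. Those markers were at 1443 and 1601 CPM in these 2 NaCl libraries. A value from 1 cell does not describe a group. Tanycytes, the ependymoglial cells of the third ventricle, are known to carry both Dio2 and Crym. Dio2 in the NaCl cells of that cluster was at 49.0 CPM in APOE3, from 14 UMIs, and had 1 UMI in APOE4. In APOE4 LPS the 24 cells with at least 5 Dio2 UMIs had 11.2 CPM of the tanycyte markers. The cells of that library and cluster without Dio2 had 16.8 CPM. Whether any of these cells were tanycytes was not tested.

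In cluster 3, 61 of 6002 cells had at least 3 Crym UMIs: 5 in APOE4 LPS (0.687%), 9 in APOE4 NaCl (0.453%), 25 in APOE3 LPS (1.73%) and 22 in APOE3 NaCl (1.20%). Genes chosen after their values were seen as higher in these cells were Nkain2 (10.9-fold, 8.40 to 14.0), 6330403K07Rik (7.59-fold), Lmo1 (5.31-fold) and the matrix protein gene Matn4 (5.04-fold).

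Among other genes of the hormone pathway in astrocytes, a few carriers and conjugating enzymes were past the threshold. Of 12 listed carriers, 10 were measured in APOE4, with 5 higher and 1 lower in LPS, and 11 in APOE3, with 3 higher and 2 lower, beside the 12.8% and 9.25% of all genes called higher and lower in APOE4 and the 7.91% and 10.6% in APOE3. Slco4a1, an organic anion carrier that transports thyroid hormones, was 3.90-fold higher (2.90 to 5.29) in APOE4 and 7.39-fold (5.63 to 9.84) in APOE3. Slco1a4 was at 0.630 and 0.392. Slc7a8 was 7.38-fold higher (4.95 to 11.3) in APOE4 and 1.68-fold (1.05 to 2.73) in APOE3. Slco2b1 was 2.92-fold higher in APOE4 and 1.68-fold in APOE3, and Slco3a1 2.26-fold higher in APOE4 and at 0.995 in APOE3. The 8 summed microglial markers, all of them detected, were at 479 CPM in astrocytes of APOE4 LPS, 158 in APOE4 NaCl, 292 in APOE3 LPS and 161 in APOE3 NaCl, and their part in these values was not tested.

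Among 12 listed binding proteins and enzymes, 6 were measured, with 2 higher in APOE4 and 3 in APOE3 and none lower in either, beside the same shares of all genes. Sult1a1, a sulfotransferase that can conjugate thyroid hormones, was at 85 CPM in APOE4 LPS, 20.7 in APOE4 NaCl, 99.7 in APOE3 LPS and 14.4 in APOE3 NaCl, 4.11-fold (3.59 to 4.71) and 6.91-fold (5.98 to 8.01) higher in LPS. Ugt1a6a, a glucuronosyltransferase, was 4.73-fold higher (2.71 to 8.75) in APOE3. Ttr, the thyroxine-binding protein of choroid plexus, was 1.77-fold higher in APOE3 and at 1.04 in APOE4, from 701 to 1242 CPM. Choroid plexus epithelium itself had 236826 to 329460 CPM of Ttr, and the part of free Ttr RNA in the astrocyte values was not tested.

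The 16 listed receptor partners and cofactors were all measured and few differed: none passed the threshold in APOE4, and in APOE3 only Rxra did, which encodes a retinoid X receptor that pairs with the thyroid hormone receptors, at 1.52 (1.25 to 1.85). The corepressor gene Ncor1 had ratios of 1.01 in APOE4 and 1.09 in APOE3. Of 15 listed genes that thyroid hormone is known to raise in rodent tissue, 13 were measured, with 1 higher and 3 lower in APOE4 and 1 higher and 2 lower in APOE3, and their median log2 ratio was -0.15 and -0.11, against -0.02 and -0.07 over all genes. The circadian factor gene Dbp was lower, at 0.436 (0.408 to 0.466) and 0.439 (0.415 to 0.463). Klf9, which also answers to glucocorticoids, was at 1.65 (1.58 to 1.72) in APOE4 and 1.26 in APOE3, Itih3 at 1.24 and 1.55, and Nrgn at 0.509 and 1.09. Over all measured astrocyte genes, 12.8% were called higher and 9.25% lower in APOE4, and 7.91% and 10.6% in APOE3. Of 14 listed glucocorticoid-responsive genes, 10 were higher in APOE4 and 9 in APOE3, with none lower in either. Of that list Fkbp5 was 35.1-fold and 24.8-fold higher, Sgk1 5.21-fold and 2.47-fold, and Map3k6 62.8-fold and 61.9-fold. Sult1a1 and Klf9 stand on that list as well, and the cause of these differences was not tested.

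Across the 52 points given by 13 classes and 4 libraries, which share libraries and depth, the level of Hr followed that of Dio2 most closely among the 6 genes (r = 0.68), then Thra that of Thrb (0.65) and Crym that of Thrb (0.59), while Slco1c1 had r between 0.07 and 0.40 with the others. Among 18563 genes, those with the level pattern most like each member by Pearson's r of log2(CPM + 1) were Dbx2 (0.93), Gm26512 (0.92) and Slc1a2 (0.88) for Dio2, Ccdc141 (0.85), Slc38a3 (0.84) and Prdm16 (0.80) for Slco1c1, and Paqr8 (0.87) and Phyhipl (0.85) for Hr. For Thrb they were Adgrl1 (0.89), Igdcc4 and Sybu (both 0.87), for Thra Ube2e2 and Fbxo21 (both 0.90) and Schip1 (0.89), and for Crym 1700080N15Rik (0.83), Syt2 (0.82) and Gssos1 (0.81). Gm26512 is the gene that overlaps Dio2 on the opposite strand.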

How the data were processed

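Droplet single-cell RNA-seq (10x Genomics 3′ v3.1, per the labels' protocols) was made from 4 groups with 1 library each. The authors deposited UMI counts per gene and cell barcode, which per the file headers came from Cell Ranger 7.0.1 (7.0 with build mm10 per the submitters' processing notes). The members, lists and thresholds were chosen with earlier results of these data known.

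Filters required 500 genes and 1000 UMIs or more per barcode, with a mitochondrial share of 20% or less. Scrublet (in scanpy 1.11.5) calls were removed from 3 libraries. In APOE4 LPS it called 24.05% of barcodes, at a median of 1667 UMIs against 2699 for the rest, and none were removed. Cells were clustered on 2000 variable genes without the 6 members, with 30 principal components, 15 neighbours and Leiden resolution 1 (igraph 0.11.9), and each of 33 clusters was named from markers of 19 cell types or left unnamed. Doublets may remain, and rebuilt names may differ from the authors'.

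UMIs were summed per class and library and scaled to CPM. Intervals are exact (Poisson for levels, conditional binomial for ratios, Clopper-Pearson for shares; 95%), and the floor is 3 counts. UMI intervals cover counting error only. Thinning drew 1000 UMIs per cell. Other list genes are named with values when past 1.5-fold with at least 50 UMIs in 1 library, and Dio1, Dio3 and Ttr always; some genes that the rule names are not reported here. Ncor1, and Slco2b1 in endothelial cells, fall outside this rule and were named after their values were seen. The ratio code was tested on simulated data. Alternatives covered filters, doublets, clustering, scaling, thinning and pseudocount. Python 3.11.15, numpy 2.4.6, scipy 1.17.1, pandas 2.3.3, scikit-learn 1.9.0 and matplotlib 3.10.9 were used.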

Additional observations from a re-analysis of the deposited data

Results flagged for a closer look

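With 1 library per group none of these differences was tested. In 4 cases the LPS to NaCl ratio lay on opposite sides of 1 in the 2 genotypes, with counting intervals that exclude 1. Crym in neurons was at 0.228 in APOE4 and 1.34 in APOE3. Slco1c1 in ependymal cells was at 2.17 in APOE4, from 113 UMIs in LPS and 25 in NaCl, and at 0.596 in APOE3, from 31 and 53. With called doublets kept the APOE4 value was -0.049 on the log2 scale, against 1.08 as reported. Thrb in endothelial cells was at 1.87 in APOE4 and 0.676 in APOE3. The APOE4 value, 0.86 on the log2 scale, was -0.92 with called doublets kept and -0.16 with called barcodes removed from APOE4 LPS too. Thrb in astrocytes was at 0.954 in APOE4 and 1.10 in APOE3, from 2985 to 5075 UMIs per library. Within astrocyte clusters 3 and 5 the APOE4 log2 ratio was 0.095 and 0.091, on the same side as APOE3 (0.065 and 0.20). The genotype difference of log2 ratios was 0.029 (-0.11 to 0.17) in cluster 3 and -0.11 (-0.23 to 0.013) in cluster 5.

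Signal also appeared outside the cells and classes compared. The 11179 barcodes of APOE4 LPS that failed the filters had 21.4 CPM of Hr, against 5.0 CPM in the 1051 of APOE4 NaCl. In clusters without a name, APOE4 LPS had 15.4 CPM of Dio2, against 1.69 in APOE4 NaCl, 4.73 CPM of Crym, against 0.564, and 46.2 CPM of Thrb, against 23.5. These values do not compare like cells. Of the 641 unnamed cells of APOE4 NaCl, 519 lay in cluster 19, which met all 7 oligodendrocyte markers. Of the 8902 of APOE4 LPS, 4935 lay in cluster 11 and 1488 in cluster 16, both with Saa3, Ccl5 and Msr1 among their leading genes.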

How the results depend on the processing

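The 132 ratios with at least 50 UMIs were recomputed under up to 15 alternatives. With a few ratios of other endothelial carriers this gave 1653 values. Of these, 1416 stayed within the counting interval of the value reported, 230 moved beyond it and 7 reversed. Only a ratio past 1.5-fold as reported could count as reversed. Smaller ratios that crossed 1 are among the other counts, such as Thrb in APOE4 astrocytes (LPS to NaCl, log2 from -0.149 to 0.125). Slco1c1 in endothelial cells (LPS to NaCl, log2) ranged from -2.71 to -1.87 in APOE4 and from -2.38 to -2.18 in APOE3, and Hr in astrocytes from 0.78 in cluster 3 alone to 2.53 in APOE4 and from 0.99 in cluster 3 alone to 2.56 in APOE3, with every one of these past 1.5-fold. Crym in astrocytes (APOE4 to APOE3) ranged from -1.34 to -0.19 in LPS, with the call lost under 4 of 15 alternatives, and from -1.58 to -0.72 in NaCl. Slco1c1 in astrocytes of APOE4 (LPS to NaCl) ranged from -0.999 to -0.53, short of the threshold in cluster 5 alone. With doublets kept, Slco1c1 reversed (log2, main value in brackets) in border-associated macrophages (LPS to NaCl in APOE4, -0.87 [3.79]), ependymal cells (LPS to NaCl in APOE4, -0.049 [1.08]) and neurons (APOE4 to APOE3 in NaCl, -0.37 [0.65]), and Thrb in endothelial cells (LPS to NaCl in APOE4, -0.92 [0.86] and APOE4 to APOE3 in LPS, -0.20 [1.39]). That Thrb ratio in APOE4 was also -0.16 with called barcodes removed from APOE4 LPS too. Crym in neurons (APOE4 to APOE3 in NaCl) was -0.066 [0.66] after thinning. A pseudocount of 10 CPM lowered the pairs past 1.5-fold to 15 from 27 (LPS to NaCl, APOE4), 17 from 26 (APOE3), 13 from 30 (APOE4 to APOE3, LPS) and 7 from 12 (NaCl), and thinning to 11 from 26 (LPS to NaCl, APOE3) and 15 from 30 (APOE4 to APOE3, LPS). Of the genes of the pathway lists in APOE3 astrocytes, 12 of 46 were past the threshold, against 19 of 53 with no count filter and 6 of 46 at 2-fold. The cause of these changes was not tested. No paired analysis was possible because each group is 1 library. Depth limits the genes outside their main classes: 47 to 60 of 78 pairs per comparison had enough UMIs to be measured.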
